A study of Saccharomyces cerevisiae with 6 samples.

Results

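The genes described here encode the respiratory chain of Saccharomyces cerevisiae, its ATP synthase and the HAP complex that regulates them. They were taken as a fixed list of 38 gene names, and 36 of these matched the gene symbol of 1 probe each among 5365 named genes on the array. QCR10 and COX7 were not analysed here. Of the 36, 25 were measured in every one of 3 replicates, and the other 11 in replicates 2 and 3 only.

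Yeast of strain S288C was grown exponentially at 25 °C in YPD, a rich medium with glucose, to an OD of 1. Treated cells then stood for 2 h in 5 mM thorium, a heavy metal of the actinides, and their polyA RNA was labelled with Cy5. Control cells grew for the same 2 h without thorium, and their RNA was labelled with Cy3 and hybridised to the same array. Independent biological samples, per the series design, gave the 3 hybridizations, each with a scan of high and a scan of low laser power, and the dyes were not exchanged. S288C is known to carry a HAP1 allele of reduced function, a heme-dependent activator of respiratory genes, and both channels share it.

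In yeast mitochondria, NADH dehydrogenases pass electrons to coenzyme Q, complex III passes them on to cytochrome c, and complex IV passes them to oxygen. Complexes III and IV pump protons, and the ATP synthase, complex V, lets them flow back to make ATP. Most subunits are encoded in the nucleus, are repressed by glucose, and are activated through CCAAT boxes by the HAP complex. A few subunits exist as an aerobic and a hypoxic isoform, COX5A and COX5B in complex IV and CYC1 and CYC7 for cytochrome c, whose expression follows oxygen and heme.

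Values are log2 ratios of the Cy5 to the Cy3 channel, where a positive ratio likely means more RNA in thorium. The base and the direction are not stated with the deposited values and were taken from the order of the channels. The scans of a hybridization were averaged, and values are given as mean ± SD over replicates. The ratio of each gene was tested against 0 with limma over all 3613 genes that had a value in every replicate. None of the 25 measured genes of respiration passed an adjusted p of 0.05, against a background of 0% of all genes, and their smallest adjusted p was 0.290. At an unadjusted p below 0.05 limma found 2 of the 25, which is 8%, against 13.8% of all genes (499). These were ATP16, below 0 (1 of the 25, beside 8.11% of all genes lower), and QCR9, above 0 (1 of the 25, beside 5.7% higher). Both shares lie below the background. No gene is therefore said to have risen or fallen, and the direction of a mean is a description.

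Ratios varied with the place of a spot on the array. The probe numbers divide the array into 8 blocks of 24 rows, giving 192 sections of 36 probes, a reading inferred from the numbers. The section of a gene accounted for a share of 0.381, 0.469 and 0.455 of the variance of the ratios of all genes in replicates 1, 2 and 3 (adjusted R squared). Over the 25 measured genes of respiration, the mean ratio and the median of the surrounding section correlated with r = 0.594 (rho = 0.520), and over all genes with r = 0.591. These points share scans and each section median includes the gene itself. Each gene is therefore given as deposited and after subtraction of its section's median in each scan, called section-centred. Whether section medians also carry a response of the cells was not tested.

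**Figure D1:**
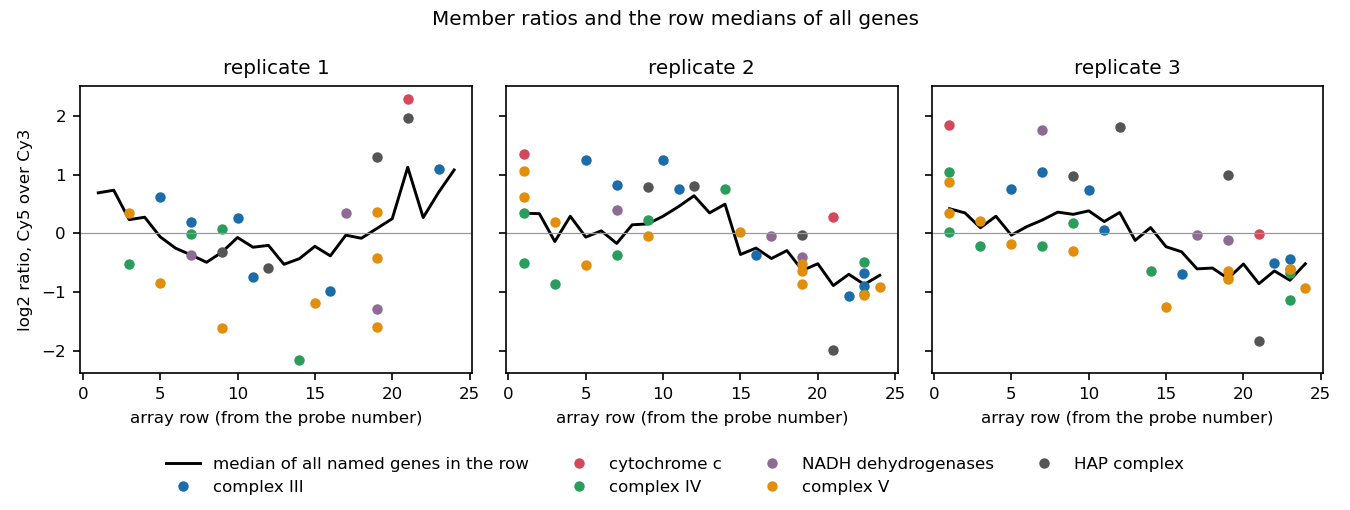
Log2 ratio (Cy5 over Cy3) of each gene of the respiratory chain, ATP synthase and HAP complex against the array row of its probe, in replicates 1, 2 and 3, with the median of all named genes in the row as a black line. In replicates 2 and 3 the line and the genes lie below 0 in rows 22 to 24, and in replicate 1 RIP1 alone of the genes in rows 1 and 22 to 24 has a value.

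The 11 genes without a value in replicate 1 all lie in array rows 1 and 22 to 24. In those rows 32.1% of all genes had a value in replicate 1, against 79.1% in the other rows. In rows 22 to 24, QCR6, QCR8, RIP1, COX4, COX5B, ATP7 and ATP14 were all below 0 in replicates 2 and 3 (7 of 7), as were 81% of all genes there. After section-centring 3 of the 7 were, against 33.1% of all genes of those rows. In row 1, CYC7, COX13, ATP1 and ATP20 were above 0 in both replicates and COX8 was not (4 of 5), beside 63.8% of all genes there. The same count after section-centring was again 4 of 5, beside 37.9%.

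Over all 25 measured genes 13 means lay below 0, which is 52% against 56.5% of all genes, and 12 above. Of the 25, 8 were below 0 in every replicate, which is 32%, against 23.2% of all genes, and 5 were above 0 in every replicate, which is 20%, against 15.4%. The median over the 25 was -0.32, -0.03 and -0.11 in replicates 1, 2 and 3, a mean of -0.15 ± 0.15 (SD, n = 3), beside -0.11, -0.12 and -0.05 over all genes. After section-centring the medians were -0.15, 0.09 and 0.19, a mean of 0.04 ± 0.17, and 11 means lay below 0 (44%, against 52.8%). Section-centred, 8 genes were below 0 in every replicate (32%, against 23.7%) and 9 above (36%, against 21%). At an unadjusted p below 0.05 limma then found ATP4, COR1, CYC1, HAP5 and NDE2, 5 of 25 or 20%, against 19% of all genes, and 0 at the adjusted threshold (0% of all genes). In replicates 2 and 3, with all 36 genes, 18 were below 0 in both (50%, against 39.2%) and 13 above (36.1%, against 32.3%), and section-centred 13 were below (36.1%, against 32.3%) and 18 above (50%, against 33.3%). The genes of respiration thus had no common direction. Their means lay on both sides of 0, and whether they were spread more widely than all genes was not tested.

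**Figure D2:**
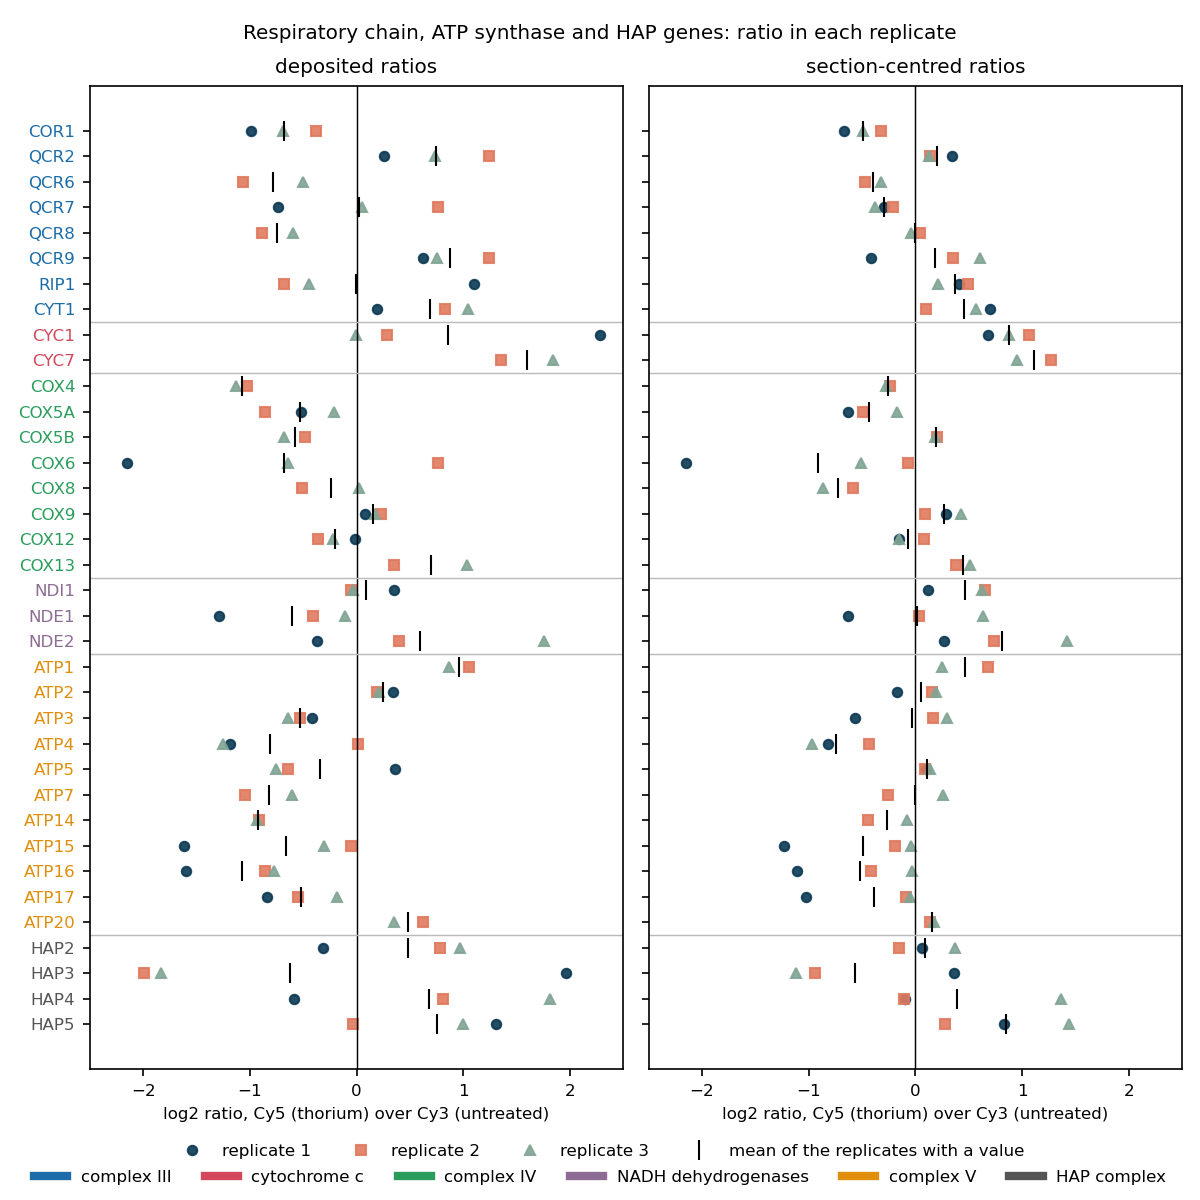
Log2 ratio (Cy5 over Cy3) in replicates 1 to 3 of the 36 genes with a probe, coloured by complex, as deposited (left) and section-centred (right). Vertical ticks are the means over the replicates with a value. RIP1, CYC1 and ATP5 have replicates far apart on the left and close together on the right, and HAP3 and COX6 stay spread in both.

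Electrons enter the yeast chain through single-subunit NADH dehydrogenases, NDI1 facing the matrix and NDE1 and NDE2 facing the cytosol side. NDI1 read 0.35, -0.05 and -0.03 in replicates 1 to 3, a mean of 0.09 ± 0.23 (SD, n = 3). NDE1 read -1.29, -0.40 and -0.11, a mean of -0.60 ± 0.62, and it was below 0 in every replicate. NDE2 read -0.37, 0.40 and 1.76, a mean of 0.60 ± 1.07, so that its sign differed between replicates. The value of NDE2 in replicate 3 rests on scans that differed widely, 2.65 at high and 0.86 at low power. After section-centring NDE2 was above 0 in every replicate, at 0.27, 0.74 and 1.43 (0.81 ± 0.58, limma adjusted p = 0.203), NDI1 likewise at 0.47 ± 0.30, and NDE1 stood at 0.02 ± 0.63. NDE1 and NDE2 are paralogs whose probes may share signal.

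Complex III, the cytochrome bc1 complex, had the highest median of the 3 complexes. Among its catalytic subunits, cytochrome c1, CYT1, read 0.19, 0.83 and 1.05, a mean of 0.69 ± 0.45 (SD, n = 3). RIP1, the Rieske iron-sulfur protein, read 1.10, -0.68 and -0.44, a mean of -0.01 ± 0.96. CYT1 was above 0 in every replicate, and RIP1 had its replicate 1 on the other side of 0. The section of RIP1 had medians of 0.69, -1.18 and -0.65 in the same replicates, and after section-centring RIP1 read 0.41, 0.50 and 0.21 and CYT1 read 0.70, 0.10 and 0.57. Both CYT1 and RIP1 were then above 0 in every replicate.

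The core proteins of complex III went apart. COR1 read -0.99, -0.38 and -0.69, a mean of -0.68 ± 0.31 (SD, n = 3, limma adjusted p = 0.362). QCR2 read 0.25, 1.24 and 0.74, a mean of 0.74 ± 0.49. Their replicates did not overlap, although the proteins occur together in the complex. The sections of COR1 and QCR2 had mean medians of -0.19 and 0.54. How often other gene pairs lie apart likewise was not counted. After section-centring COR1 stayed below 0 in every replicate at -0.49 ± 0.17 (limma adjusted p = 0.231) and QCR2 above 0 in every replicate at 0.21 ± 0.12.

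The small subunits of complex III differed as well. QCR9 read 0.62, 1.25 and 0.75, a mean of 0.87 ± 0.33 (SD, n = 3, limma adjusted p = 0.299), the highest of the 25, in a section with a mean median of 0.69. Section-centred it stood at 0.18 ± 0.53 with replicate 1 below 0. QCR7 read -0.74, 0.76 and 0.05 and, section-centred, -0.29, -0.21 and -0.38, a mean of -0.29 ± 0.08. In replicates 2 and 3 only, QCR6, the acidic hinge protein, stood at -0.78 ± 0.39 (SD, n = 2) and QCR8 at -0.74 ± 0.20, and section-centred at -0.40 ± 0.11 and 0.0019 ± 0.06. The value of QCR8 in each replicate was thus close to that of its section.

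Cytochrome c carries electrons from complex III to complex IV, and both of its genes were above 0 after section-centring. CYC1, the aerobic isoform, read 2.29, 0.29 and -0.01 as deposited, a mean of 0.85 ± 1.25 (SD, n = 3, limma adjusted p = 0.455). Replicate 1 stood far above the others and rests on the high power scan alone. The section of CYC1 had medians of 1.61, -0.78 and -0.89, and section-centred CYC1 read 0.68, 1.06 and 0.88, a mean of 0.88 ± 0.19 (limma adjusted p = 0.150, the smallest among the genes of respiration). CYC7, the hypoxic isoform, read 1.35 and 1.84 in replicates 2 and 3, a mean of 1.60 ± 0.35 (SD, n = 2), a fold of 3.03. Its section medians were 0.08 and 0.89, and section-centred it read 1.28 and 0.95, a mean of 1.12 ± 0.23.

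The question of the isoform pairs is whether the ratio of the aerobic gene differed from that of the hypoxic gene on the same array. As deposited, CYC1 minus CYC7 was -1.07 in replicate 2 and -1.85 in replicate 3, a mean of -1.46 ± 0.56 (SD, n = 2; exact sign-flip permutation test, 2-sided, p = 0.5, adjusted p = 1 over 2 pairs). The hypoxic gene had the higher ratio in both replicates. After section-centring the difference was -0.21 and -0.07, a mean of -0.14 ± 0.10 (exact sign-flip permutation p = 0.5, adjusted p = 0.5). With 2 replicates 0.5 is the smallest p that this test can give, so neither value can reach the threshold. The isoforms have similar sequences and their probes may share signal.

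For the complex IV pair, COX5A read -0.52, -0.86 and -0.21, a mean of -0.53 ± 0.32 (SD, n = 3, limma adjusted p = 0.443), below 0 in every replicate. Its replicate 2 read -1.58 at high and -0.14 at low power, the widest gap between scans among the genes of respiration in that replicate. COX5B, the hypoxic isoform, read -0.48 and -0.68 in replicates 2 and 3, a mean of -0.58 ± 0.14 (SD, n = 2), in a section with medians of -0.68 and -0.86. Deposited ratios gave a difference COX5A minus COX5B of -0.38 and 0.46, a mean of 0.04 ± 0.60 (exact sign-flip permutation p = 1, adjusted p = 1). Section-centred, COX5A stood at -0.63, -0.49 and -0.17 and COX5B at 0.20 and 0.18. The section-centred difference was -0.70 and -0.35, a mean of -0.52 ± 0.24 (exact sign-flip permutation p = 0.5, adjusted p = 0.5). As deposited, the aerobic gene was lower than the hypoxic one in replicate 2 and higher in replicate 3. After section-centring it was lower in both. The deposited order in replicate 2 rests on the high power scan, where COX5B read -0.75. At low power COX5B read -0.21, below COX5A. From the high power scans alone the mean deposited difference was -0.20, and from the low power scans alone 0.29. The probes of this pair may also share signal.

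**Figure D3:**
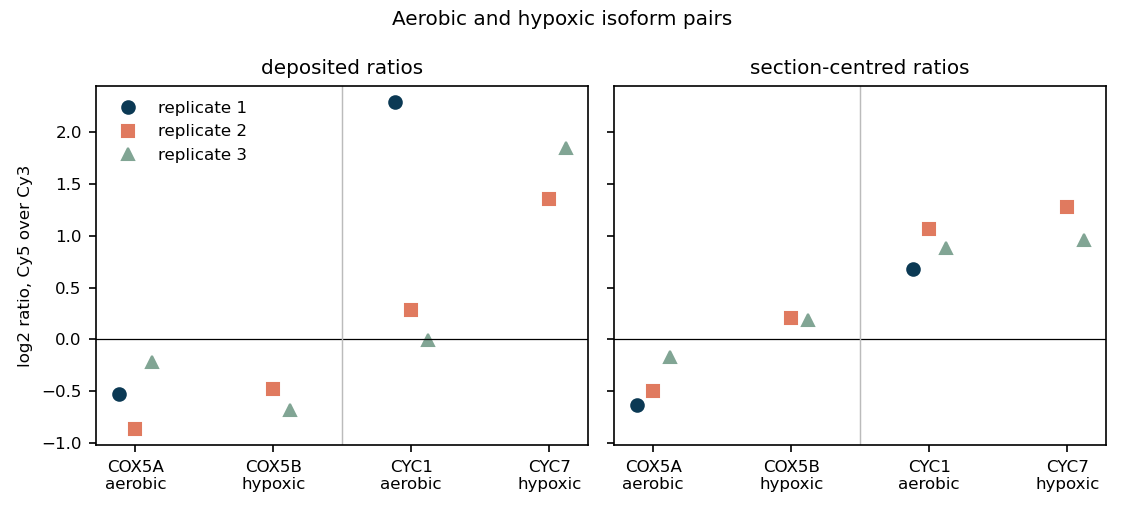
Log2 ratio (Cy5 over Cy3) in each replicate of the aerobic and hypoxic isoforms COX5A and COX5B, and CYC1 and CYC7, as deposited (left) and section-centred (right). COX5B and CYC7 have values in replicates 2 and 3 only. The gap between CYC1 and CYC7 is a mean of -1.46 on the left and -0.14 on the right.

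The other genes of complex IV, cytochrome c oxidase, had no shared direction. COX6 read -2.15, 0.76 and -0.64, a mean of -0.68 ± 1.46 (SD, n = 3), and its scans of replicate 1 gave -2.20 and -2.10. The section of COX6 had a median of -0.0041 in replicate 1, and section-centred COX6 read -2.15, -0.07 and -0.51. COX9 read 0.08, 0.23 and 0.17, a mean of 0.16 ± 0.08, above 0 in every replicate in both forms (section-centred 0.27 ± 0.17). COX12 read -0.01, -0.37 and -0.22, a mean of -0.20 ± 0.18, and section-centred -0.07 ± 0.14. The replicates of COX6 were spread as deposited, and section-centred its replicate 1 lay far from the others. COX9 and COX12 stayed near 0.

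COX4, COX8 and COX13, also of complex IV, had values in replicates 2 and 3. COX4 read -1.02 and -1.13, a mean of -1.08 ± 0.07 (SD, n = 2), in a section with medians of -0.78 and -0.86, and section-centred it stood at -0.26 ± 0.02. COX8 stood at -0.24 ± 0.38 as deposited and at -0.73 ± 0.20 section-centred. COX13, which is not needed for the catalytic core, stood at 0.70 ± 0.48 and 0.45 ± 0.10. CYC7 and COX8 lie in the same section, and there CYC7 exceeded COX8 by 1.86 and 1.82 in replicates 2 and 3 (1.84 ± 0.03).

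In complex V, the catalytic F1 head is built of ATP1 and ATP2, the alpha and beta subunits, around a central stalk of ATP3, ATP15 and ATP16, the gamma, epsilon and delta subunits. ATP2 read 0.34, 0.19 and 0.21, a mean of 0.25 ± 0.08 (SD, n = 3), and ATP1 read 1.05 and 0.87 in replicates 2 and 3, a mean of 0.96 ± 0.13 (SD, n = 2). Both head subunits were above 0 in every replicate with a value, and ATP1 lay in a section with medians of 0.37 and 0.61. Section-centred, ATP1 stood at 0.47 ± 0.30 and ATP2 at 0.06 ± 0.20.

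The central stalk genes were below 0 in every replicate as deposited. ATP16 read -1.60, -0.86 and -0.77, a mean of -1.08 ± 0.45 (SD, n = 3, limma adjusted p = 0.290), the lowest of the 25. ATP3 read -0.42, -0.53 and -0.64, a mean of -0.53 ± 0.11, and ATP15 read -1.62, -0.05 and -0.30, a mean of -0.66 ± 0.84. The value of replicate 1 for ATP16 and ATP15 rests on the high power scan alone, and it is the lowest of the replicates for both. Section-centred, ATP16 read -1.11, -0.42 and -0.03 (-0.52 ± 0.55), ATP15 read -1.23, -0.19 and -0.04 (-0.49 ± 0.65) and ATP3 read -0.57, 0.17 and 0.30 (-0.03 ± 0.47). In replicates 2 and 3 the section-centred ATP15 and ATP16 thus stood between -0.42 and -0.03.

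The stator and membrane subunits of the ATP synthase lay mostly below 0. ATP4, the b subunit of the stator, read -1.19, 0.02 and -1.25, a mean of -0.81 ± 0.71 (SD, n = 3). Section-centred it was below 0 in every replicate, at -0.82, -0.43 and -0.96 (-0.74 ± 0.27, limma adjusted p = 0.162). ATP5, the subunit that confers oligomycin sensitivity, read 0.36, -0.64 and -0.76, following its section medians of 0.27, -0.73 and -0.90, and section-centred it stood at 0.11 ± 0.03. ATP17, the f subunit, stood at -0.52 ± 0.33 and section-centred at -0.39 ± 0.55. In replicates 2 and 3, ATP7 stood at -0.82 ± 0.31 (SD, n = 2), ATP14 at -0.92 ± 0.01 and ATP20, the g subunit that links dimers, at 0.49 ± 0.20, and section-centred at -0.00074 ± 0.36, -0.26 ± 0.26 and 0.16 ± 0.03. The single scans of ATP14 lay further apart than its SD of 0.01. At high and low power they read -1.03 and -0.79 in replicate 2 and -0.74 and -1.12 in replicate 3. Of the stator genes, ATP4 alone kept a section-centred mean beyond -0.5.

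Taking the complexes as groups, the deposited medians ran from complex III through IV to V in every replicate. Complex III, over 6 measured genes, had medians of 0.22, 0.80 and 0.40 (0.47 ± 0.29, SD, n = 3). Complex IV, over 4 genes, had -0.27, -0.07 and -0.22 (-0.18 ± 0.10), and complex V, over 7 genes, had -0.84, -0.53 and -0.64 (-0.67 ± 0.16). Complex III exceeded complex V by 1.06, 1.32 and 1.03, and complex IV exceeded complex V by 0.57, 0.46 and 0.42. With QCR6 and QCR8, measured in replicates 2 and 3, the median of complex III was 0.073 over genes with 2 or more replicates and -0.00049 without replicate 1. The sections of these genes had medians of -0.20, 0.81 and 0.29 for complex III, 0.05, -0.11 and -0.10 for complex IV and 0.15, -0.44 and -0.29 for complex V. Section medians were highest for complex III and lowest for complex V in replicates 2 and 3, and in the reverse order in replicate 1.

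After section-centring the gaps between complexes were smaller. The mean medians were 0.11 ± 0.07 for complex III, -0.18 ± 0.20 for complex IV and -0.31 ± 0.44 for complex V (SD, n = 3). Complex III exceeded complex IV by 0.41, 0.12 and 0.33 and complex V by 0.85, 0.21 and 0.20, in every replicate. Complex IV minus V was 0.43, 0.09 and -0.13. The low median of complex V came from replicate 1, at -0.82, against -0.08 and -0.03 in the others. Over all genes with values in replicates 2 and 3, section-centred and without replicate 1, the means were 0.06 for complex III (8 genes), -0.08 for complex IV (8) and 0.03 for complex V (11). The order of the deposited medians was not seen there. Medians over so few chosen genes carry no test.

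**Figure D4:**
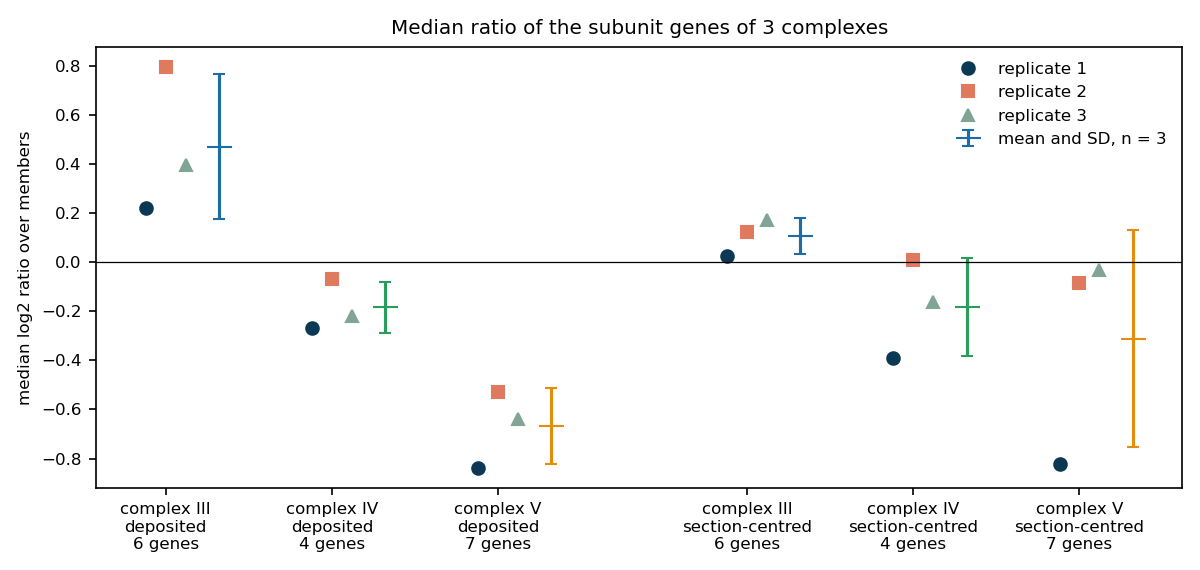
Median log2 ratio over the measured subunit genes of complexes III, IV and V in each replicate, as deposited (left) and section-centred (right), with the mean and SD over 3 replicates beside. The deposited medians descend from complex III to complex V in every replicate, and the section-centred medians of complexes IV and V overlap.

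The HAP complex binds CCAAT boxes through HAP2, HAP3 and HAP5, and HAP4 supplies the activation domain and limits its activity on glucose. HAP4 read -0.58, 0.81 and 1.81, a mean of 0.68 ± 1.20 (SD, n = 3), and HAP2 read -0.32, 0.78 and 0.97, a mean of 0.48 ± 0.70. Both had replicate 1 below 0 and the others above, like the medians of their sections. Section-centred, HAP4 read -0.09, -0.11 and 1.36 and HAP2 stood at 0.09 ± 0.26, so that the high value of HAP4 was in replicate 3.

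HAP5 read 1.31, -0.03 and 1.00, a mean of 0.76 ± 0.70 (SD, n = 3), and section-centred it was above 0 in every replicate, at 0.83, 0.27 and 1.44 (0.85 ± 0.58, limma adjusted p = 0.192). Its scans of replicate 1 differed, 1.84 at high and 0.78 at low power, and its replicate 3 rests on the high power scan alone. HAP3 read 1.96, -1.99 and -1.83, in each replicate at high power only. Replicates 1 and 2 thus lay at opposite ends of its range. Without replicate 1, HAP3 was the 1 gene of the 36 past the threshold, at -1.91 (limma adjusted p = 0.0421), where 1.61% of all genes passed (77 of 4790). Section-centred and without replicate 1 it stood at -1.03 (limma adjusted p = 0.166), and 0 of all genes passed.

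Other genes of respiration were read from lists of 103 names, of which 95 had a probe and 70 a value in every replicate. Limma called 0 of the 70 at an adjusted p of 0.05 (smallest 0.271). At an unadjusted p below 0.05 it found 7, which is 10%, 4 higher and 3 lower, against 13.8% of all genes. Means lay above 0 for 31 and below for 39, where 56.5% of all genes lay below. The median of the 70 was -0.04, beside -0.09 over all genes.

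Complex II, succinate dehydrogenase, had all its genes measured. SDH1, the flavoprotein, stood at 0.57 ± 0.98 and SDH2, the iron-sulfur subunit, at 0.36 ± 0.62 (SD, n = 3). The membrane anchors SDH3 and SDH4 stood at -0.36 ± 0.29 and 0.10 ± 0.62. Section-centred, SDH1, SDH2 and SDH4 were above 0 in every replicate, at 0.49, 0.35 and 0.38, and SDH3 stood at -0.08. Among the other electron donors and cytochrome c factors, GUT2, the mitochondrial glycerol-3-phosphate dehydrogenase, stood at 0.57 ± 1.10 and CYC2, which serves cytochrome c maturation, at -0.08 ± 0.10. GUT2 read 1.79 in replicate 1 and -0.32 and 0.23 in the others, and section-centred -0.05, 0.51 and 1.17 (0.54 ± 0.61). CYC2 stood at -0.12 ± 0.19 section-centred.

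Genes for the assembly of the complexes were on both sides of 0. Over all genes 56.5% of the means lay below 0, with a median of -0.09, and such lists were not tested as groups. Of the 23 measured for complex IV, 14 were above 0, with a median of 0.07. PET111, which activates translation of the mitochondrial COX2 mRNA, stood at 1.28 ± 0.58 (SD, n = 3, limma adjusted p = 0.271) and COX18, which inserts part of Cox2 into the membrane, at 1.13 ± 0.55. They were above 0 in every replicate in both forms. Section-centred, PET111 read 1.37, 0.04 and 0.30 (0.57 ± 0.71) and COX18 read 1.68, 0.33 and 0.31 (0.78 ± 0.79). Replicate 1 was by far the highest for both. Of the 8 for complex III 7 were below 0, with a median of -0.35, or -0.17 section-centred. CBT1, which serves the cytochrome b mRNA, stood at -0.89 ± 1.35 and CBP3, a factor for cytochrome b, at -0.84 ± 0.79. Both had a replicate above 0 as deposited. Section-centred, CBT1 was below 0 in every replicate, at -1.66, -0.34 and -0.77 (-0.92 ± 0.67), and CBP3 read 0.01, -1.10 and -0.82 (-0.64 ± 0.58).

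Of the 7 genes measured for complex V assembly 4 were below 0, with a median of -0.29, beside 56.5% and -0.09 over all genes. ATP12, a chaperone for the alpha subunit, read -1.02, -0.76 and -0.88 (-0.89 ± 0.13, SD, n = 3, limma adjusted p = 0.299), and AEP1, needed to express a mitochondrially encoded subunit, stood at -0.72 ± 0.30. Section-centred, ATP12 read -1.17, -0.06 and 0.05, and AEP1 stayed below 0 in every replicate at -0.35 ± 0.23. Of the 10 genes of coenzyme Q synthesis 7 were below 0, with a median of -0.27, or 0.02 section-centred. Section-centred, 6 of the 10 were above 0. COQ2, which joins the ring to its polyprenyl tail, stood at 0.68 ± 0.25 and section-centred at 0.89 ± 0.36, above 0 in every replicate. COQ6, a ring hydroxylase, stood at -0.64 ± 0.58 and section-centred at -0.13 ± 0.23.

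Of the further subunits and inhibitors, 6 were measured with 4 below 0, beside 56.5% of all genes. ATP19, the k subunit, stood at 0.61 ± 0.53 and INH1, which inhibits ATP hydrolysis, at -0.47 ± 0.30 (SD, n = 3), and section-centred at 0.16 and -0.09. Of 11 citric acid cycle genes listed as targets of HAP4, 7 were measured, with 3 above and 4 below 0. LSC2, a subunit of succinyl-CoA ligase, read -0.92, -0.95 and -0.98, and section-centred -1.39, -0.64 and -0.48. CIT1, citrate synthase, read -2.89, 0.07 and 1.13, and section-centred -1.91, 0.11 and 0.21. LSC2 was thus below 0 in every replicate in both forms, and CIT1 spanned the widest range of the 7.

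**Figure D5:**
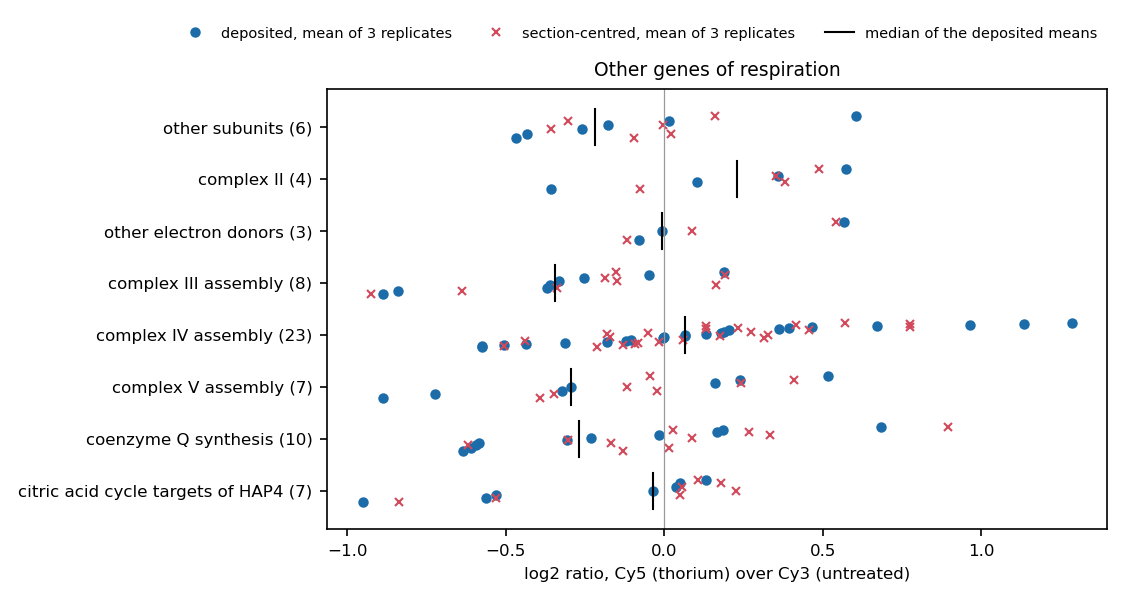
Mean log2 ratio (Cy5 over Cy3) over 3 replicates of other genes of respiration, grouped by list with the number of measured genes in brackets. Lists with 3 or more measured genes are drawn. Dots are deposited values, crosses section-centred values, and bars the medians of the deposited means. Medians run from -0.35 for complex III assembly to 0.23 for complex II.

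Other aerobic and hypoxic isoforms gave few values. PET9, the main ADP/ATP carrier, read 1.45 and 1.20 in replicates 2 and 3 (1.32 ± 0.18, SD, n = 2), and section-centred 1.27 and 0.91. HMG1, a reductase of sterol synthesis, stood at 0.69 ± 0.01 and HYP2, the aerobic form of a translation factor, at -0.99 ± 0.04, and section-centred at 0.61 ± 0.04 and -0.17 ± 0.09. Of the hypoxic forms, ANB1 read 0.85, -0.89 and -0.71, and section-centred 0.23, -0.22 and 0.07, while AAC3 had a value in replicate 2 only, 0.76, or 0.66 section-centred. Aerobic forms were thus found on both sides of 0. HYP2 lies in array row 23, where the medians over all genes were -0.87 and -0.80 in replicates 2 and 3. PET9 and HMG1 lie in rows 3 and 2. Probes of HYP2 and ANB1, and of PET9 and AAC3, may also share signal, which was not tested. Of the regulators, ROX1, a heme-dependent repressor of hypoxic genes, read -0.0044, 1.00 and 0.95 (0.65 ± 0.57, SD, n = 3), and section-centred it was above 0 in every replicate at 0.36 ± 0.24. MOT3, which acts with ROX1, had a value in replicate 2 only, -0.77. That value equals the median of its section, which includes MOT3 itself, so its section-centred 0 is no measure of its response.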

How the data were processed

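LOWESS was applied to spots whose flag was 0, and high and low scans were combined in GeneSpring, per the labels. The deposited values used here were taken as a log2 ratio for each spot in each scan, and the combined values were left out. Scanner, image software, background step and versions were not given in the sources used here. Brightness behind a ratio is unknown. Precision is limited by the number of arrays and by the gap between scans. Among genes of respiration with both scans, the median absolute gap was 0.33, 0.62 and 0.12 in replicates 1, 2 and 3. Over all genes it was 0.35, 0.46 and 0.11. The scans had opposite signs for 3 of 19, 7 of 24 and 1 of 23 genes of respiration.

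Names came from the platform annotation (5513 of 6912 probes, the others unnamed), updated through Entrez IDs against RefSeq for 5360 of 5365 genes. Scans of a replicate were averaged. Genes measured in every replicate were tested against 0 with limma 3.58.1 (lmFit, eBayes) in R 4.3.3. The test was 2-sided, with adjustment by Benjamini and Hochberg over all genes, on 2 residual and 4.43 prior degrees of freedom. The fit was tested on simulated data. A shift common to most genes is removed by LOWESS and is not visible here.

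Section-centring needs 5 genes with a value in a section. The high power scans gave values for 4198, 5483 and 5435 probes and the low power scans for 2782, 3780 and 4552. Genes and lists were chosen with earlier results of these data known. Every listed gene with a probe is described, and of each other list the 2 genes with the largest absolute mean among those measured in every replicate, or all genes with a probe in lists of 4 or fewer. Alternatives changed the scans, normalization, filter, replicates and weights.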

Additional observations from a re-analysis of the deposited data

How the results depend on the processing

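Limma called 0 genes in all and 0 genes of respiration in each scan power alone, with all 6 scans and a replicate block, after median, quantile or section-centring, a robust prior or array weights, after a two-dimensional loess, over genes with values in 2 or more replicates or in both scans, and without replicate 2 or 3. Without replicate 1 it called 77 genes and 1 gene of respiration. At an unadjusted p below 0.05 the counts were 499 and 2 (686 in all when section-centred), and 41 genes in all lay beyond a 2-fold ratio in every replicate. Leaving out 1 replicate gave medians from -0.21 to -0.10 for all measured genes, -0.00049 to 0.51 for complex III, -0.32 to -0.17 for complex IV and -0.74 to -0.56 for complex V. It gave differences of 0.32 to 0.68 for complex III minus IV, 0.56 to 1.19 for III minus V, 0.24 to 0.52 for IV minus V, -0.38 to 0.46 for COX5A minus COX5B and -1.85 to -1.07 for CYC1 minus CYC7. Without replicate 1 more genes enter, which lie in the outer array rows.

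Section-centring gave 0.043 for all measured genes, 0.11 for complex III, -0.31 for complex V, 0.29 for complex III minus IV, 0.42 for III minus V, 0.13 for IV minus V and -0.14 for CYC1 minus CYC7. Section-centred and without replicate 1, chosen after seeing the data, these were 0.12 for all, 0.060, -0.077 and 0.027 for complexes III, IV and V, and 0.14, 0.033 and -0.10 for the differences. The two-dimensional loess over block and row (span 0.1), also chosen after seeing the data, gave 0.10, -0.32 and -0.44 for the complexes, differences of 0.42, 0.55 and 0.12, and -0.66 for COX5A minus COX5B and -0.26 for CYC1 minus CYC7. High power alone gave -0.35 for complex IV, 0.92 for III minus IV and 0.36 for IV minus V. Low power alone gave -0.016 for complex IV, -0.37 for complex V, and 0.23, 0.59 and 0.36 for the differences. The replicate block gave 0.36 for IV minus V. Genes with values in 2 or more replicates gave 0.073 for complex III, -0.30 for complex IV, and 0.38, 0.73 and 0.35 for the differences, and genes in both scans 0.86 for III minus V and 0.34 for IV minus V. The mean over members gave -0.31 for complex IV. The causes were not tested beyond the change in genes measured. Single genes changed sign most often without replicate 1 and section-centred (5 of 25), and with section-centring alone 4 did, QCR7, RIP1, NDE1 and ATP5.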

Other observations

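Replicate agreement among the 25 measured genes differed between the forms of the data. As deposited, replicates 1 and 2 correlated across these genes with r = -0.128, replicates 1 and 3 with r = 0.0797 and replicates 2 and 3 with r = 0.710. Section-centred, the values were 0.425, 0.486 and 0.706. Over all genes they were 0.0949, 0.0245 and 0.559 as deposited and 0.319, 0.247 and 0.460 section-centred. These are correlations across genes, which are not independent replicates. In both replicates 2 and 3 the row medians of all genes lay below 0 from row 15 to row 24. Whether this bears on their correlation was not tested.

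Some values were singled out after they were seen. CYC3, the lyase that attaches heme to cytochrome c, read 0.47 and 1.14 in replicates 2 and 3, and section-centred 1.29 and 1.18 (1.23 ± 0.07, SD, n = 2), beside the section-centred means of 0.88 for CYC1 and 1.12 for CYC7. CYC2 and CYT2 of the same list stood near 0 section-centred, at -0.12 ± 0.19 and 0.09 ± 0.27 (SD, n = 3). SHY1, an assembly factor of complex IV, read 0.83, 0.33 and 0.24, and section-centred 0.86, 0.71 and 0.76 (0.78 ± 0.08, SD, n = 3). NDE1 and ATP16 lie in the same array section, and NDE1 exceeded ATP16 by 0.31, 0.45 and 0.66 in replicates 1 to 3. COX9 and ATP15 also share a section, and COX9 exceeded ATP15 by 1.69, 0.28 and 0.47. COX4 and ATP7 share another, where their difference was 0.02 and -0.53 in replicates 2 and 3.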
